A study of Mus musculus with 20 samples.

Results

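Mitosis runs on a dedicated set of proteins, and 40 mouse genes that encode them were followed in C2C12 myotubes exposed to H2O2. The genes encode kinesins and other motors of the spindle, kinetochore and spindle checkpoint proteins, the chromosome passenger complex and mitotic kinases, CDK1 and its activators, proteins of the spindle poles, midzone and cytokinesis, and proteins of chromosome structure and anaphase. They were chosen by name: every probe set whose only gene symbol in the platform annotation was one of the 40 was taken. Of the 40 genes, 39 had a probe set (69 probe sets, of 22626 that were not controls), and Kif20b matched 0 probe sets and was not analysed here. All 39 had at least 1 tested probe set (62 probe sets in all, with 7 too dim to test), among 8159 tested genes with 1 symbol. A gene is represented here by its tested probe set of highest mean signal.

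C2C12 is an established mouse myoblast line whose cells leave the cell cycle and fuse into multinucleated myotubes when serum is lowered. All 5 groups were myotubes differentiated for 96 h and then held for 2 h in medium with 0.5% horse serum, with H2O2 at 0, 1, 10, 100 or 1000 µM, and each group had 4 arrays of the Affymetrix Mouse Genome 430A type. H2O2 is an oxidant that crosses membranes, and the submitters' design set each dose against the untreated myotubes. Nothing states that the 4 replicates of a dose were separate cultures, so p-values cover only the spread among these arrays, part or all of which may be technical.

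Genes of mitosis are transcribed mainly in late S phase, G2 and M phase of cycling cells and are silent in most resting cells. Their promoters commonly hold a cell cycle homology region, bound by MuvB complexes that repress the gene in resting cells and, with B-MYB and FOXM1, activate it before mitosis, together with CCAAT boxes bound by NF-Y. Differentiating myoblasts shut this program off, but C2C12 cultures keep some mononucleated cells that have not fused. In RNA of a whole culture, fewer cells of a type and less RNA per cell cannot be told apart.

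The promoters of 4 of the genes are printed because they differ in the motifs and because the genes differ in response. The sequences are RefSeq's, from assembly GRCm38.p6, and run 5′ to 3′ on the gene's strand from 250 bases before the start of the gene to 50 bases after it. Capitals mark each match to TTTGAA (the core of the cell cycle homology region) and to CCAAT (the NF-Y box), searched on both strands, so that a reverse match reads TTCAAA or ATTGG; no match overlapped another in these 4.
Plk1, chr7:122159185-122159484, plus strand: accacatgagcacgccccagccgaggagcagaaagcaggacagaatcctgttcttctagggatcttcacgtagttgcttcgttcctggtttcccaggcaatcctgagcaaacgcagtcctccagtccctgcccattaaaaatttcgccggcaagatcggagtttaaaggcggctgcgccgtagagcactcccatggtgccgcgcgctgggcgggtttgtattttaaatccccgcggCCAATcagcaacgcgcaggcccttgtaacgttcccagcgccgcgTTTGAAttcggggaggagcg
Aspm, chr1:139454523-139454822, plus strand: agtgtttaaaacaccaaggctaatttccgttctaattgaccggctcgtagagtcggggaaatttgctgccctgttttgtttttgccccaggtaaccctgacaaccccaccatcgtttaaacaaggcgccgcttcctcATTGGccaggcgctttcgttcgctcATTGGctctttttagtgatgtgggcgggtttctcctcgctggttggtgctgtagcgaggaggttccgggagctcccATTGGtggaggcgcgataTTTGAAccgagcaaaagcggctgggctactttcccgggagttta
Cks2, chr13:51644982-51645281, plus strand: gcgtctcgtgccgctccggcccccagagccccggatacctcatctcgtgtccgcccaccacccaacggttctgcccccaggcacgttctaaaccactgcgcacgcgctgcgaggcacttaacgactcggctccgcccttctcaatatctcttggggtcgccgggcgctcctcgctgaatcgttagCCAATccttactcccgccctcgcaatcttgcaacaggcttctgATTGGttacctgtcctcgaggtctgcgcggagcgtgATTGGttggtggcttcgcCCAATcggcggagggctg
Cdc25a, chr9:109875329-109875628, plus strand: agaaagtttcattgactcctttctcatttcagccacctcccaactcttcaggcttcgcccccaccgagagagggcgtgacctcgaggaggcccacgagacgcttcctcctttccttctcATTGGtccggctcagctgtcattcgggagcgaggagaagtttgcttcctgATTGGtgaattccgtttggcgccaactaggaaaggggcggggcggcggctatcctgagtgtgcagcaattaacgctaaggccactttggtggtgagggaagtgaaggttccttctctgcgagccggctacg
The Plk1 promoter held CCAAT at position -14 and TTTGAA at position 31, counted from the start of the gene. The Aspm promoter held TTTGAA at position 7 and CCAAT on the reverse strand at positions -113, -88 and -12. The promoters of Cks2, with 4 CCAAT matches, and of Cdc25a, with 2, held 0 matches to TTTGAA.

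RefSeq's table matched 34 of the 39 measured genes, with 37 promoters. TTTGAA was present in 26 of the 37 (70.3%), against 17.9% of all 32851 promoters of the same length and 12.9% of the 12567 promoters of genes on the array. CCAAT was present in 30 (81.1%), against 37.4% and 37.1%, and both motifs in 24 (64.9%), against 6.95% and 5.00%. The median GC content was 59% in the mitosis promoters and 59% in those of genes on the array. By gene, 23 of 34 had TTTGAA, and the 11 without it were Birc5, Bub1, Cdc25a, Cdc25b, Cenpe, Cks2, Kif18a, Mad2l1, Nek2, Nusap1 and Pttg1. These shares describe letters in a window, not binding.

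Signals of the mitosis genes in untreated myotubes lay on average above the level used for testing, some of them barely. Signals are the linear probe-set values of the authors' software, on a scale where each array has a trimmed mean of 500. They compare arrays within a gene. Percentiles and sums across genes describe array signal and do not compare amounts of RNA between genes. On the untreated arrays, the mean level of all 39 lay above the 40th percentile of all probe sets of the array, and 37 of the 39 reached that level on all 20 arrays; Kif18a did so on 15 and Cdc25c on 18. The lowest were Cdc25c, Kif18a and Cenpe, at percentiles 43.7, 48.7 and 48.9, and the median of the 39 was 78.3. All 23 myotube markers lay above it too, with a median at the 99.0th percentile, as did 9 of 13 markers of reserve and satellite cells (Pax7, Pax3, Hey1 and Calcr lay below), 8 of 10 fibroblast markers and 2 of 7 leukocyte markers (Csf1r at 46.0 and Cd14 at 45.3, above Cdc25c and below the other 38 mitosis genes). Signal of most mitosis genes and of differentiated muscle genes thus lay above the level used for testing in the same cultures. Which cells the signal of the mitosis genes came from was not tested.

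Arrays also differed apart from dose. Principal component 1 of the tested probe sets (28.2% of the variance) separated 5 arrays, 1 of each dose (27.6 to 42.5), from the other 15 (-16.1 to -6.22). These were the arrays numbered replicate 1 and a 10 µM array with no number in its title. That array is called replicate 1 here because its values grouped with theirs, so its place on this component is not a separate result. Of the mitosis genes, 7 were higher and 2 lower on the array numbered 1 than on the mean of the other 3 at all 5 doses, with 30 mixed. Over all tested genes, 16.8% were higher and 20.1% lower at all 5 doses. The 3′ to 5′ signal ratio of Gapdh, a measure of RNA integrity, ran from -0.36 to -0.30 (log2) on untreated arrays, from -0.33 to -0.18 at 100 µM and from -0.31 to -0.29 at 1000 µM. The median log2 signal of all probe sets was 0.20 lower at 1000 µM than in untreated myotubes, so signs at that dose depend on how arrays are scaled, as given below.

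The summed signal of the 39 genes was lowest at 100 µM. It lay between 40795 and 44309 on untreated arrays, between 40908 and 44267 at 1 µM, and between 42627 and 45926 at 10 µM. At 100 µM it lay between 36375 and 37855, below every array of every other dose. At 1000 µM it lay between 42307 and 46419, within or above the untreated range. Bright genes such as Cks1b and Pttg1 weigh most in this sum. With equal weight per gene, the median log2 deviation of the 39 genes from their means over all arrays was -0.00 to 0.14 untreated. By that measure the 100 µM arrays were again below all others, at -0.21 to -0.15. The 1000 µM arrays, at -0.09 to 0.07, lay within or below the untreated range.

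**Figure D1:**
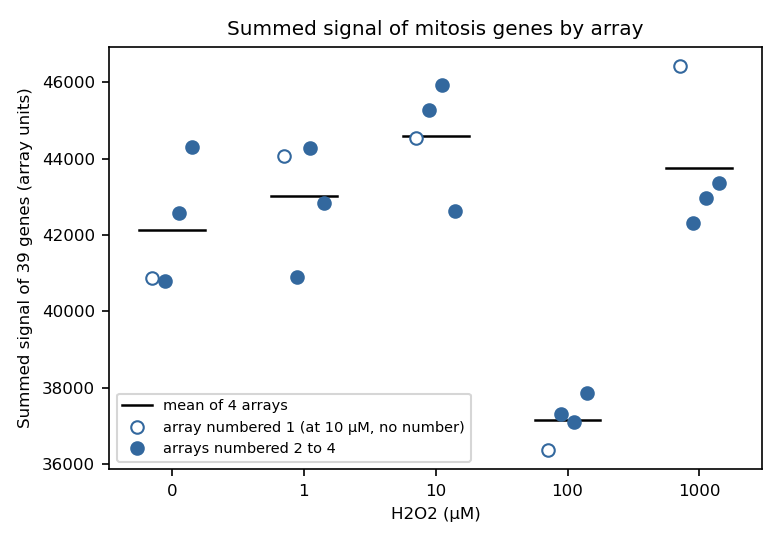
Summed signal of the 39 mitosis genes (vertical axis, array units, not starting at 0) on each array against H2O2 dose, with the mean of 4 arrays as a line and arrays numbered 1 (at 10 µM the unnumbered array) as open circles. The 4 arrays at 100 µM sit between 36375 and 37855, below all 16 arrays of the other doses.

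At the lowest doses the mitosis genes did not pass the test. In limma's fit over all tested probe sets, 0 of 39 were called (adjusted p under 0.05) at 1 µM against untreated, where 0% of all tested genes were called lower and 0% higher. At 10 µM also 0 of 39 were called, against 0.0123% of all genes called lower and 0% higher. At an unadjusted p under 0.05, 1 was lower and 2 higher at 1 µM, and 1 was lower and 3 higher at 10 µM. Of all 8159 tested genes, 338 were lower and 201 higher at 1 µM by that threshold, and 269 lower and 138 higher at 10 µM. All 4 arrays lay below the untreated ones at 1 µM for 0 of 39 genes (2.29% of all genes) and above them for 0 (1.51%). The median log2 difference of the 39 was 0.05 at each of these doses, against -0.02 over all tested genes. At 10 µM, Mad2l1, a spindle checkpoint protein, and Cdk1, the kinase that drives entry into mitosis, had all 4 arrays above all untreated arrays, 2 of 39 against 1.4% of all genes, with adjusted p of 0.963 for each, and 0 had all arrays below, against 2.67%.

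At 100 µM the mitosis genes lay lower as a group, and 5 of them fell: Kif18a, Ect2, Aspm, Kif2c and Plk1. These 5 are 12.8% of the 39, against 0.404% of all tested genes called lower, and 0 of the 39 were called higher, against 0.993% of all genes. In direction, 36 of 39 lay below 0, against 55.0% of all tested genes, and the median log2 difference was -0.20, against -0.02. All 4 arrays at 100 µM lay below all 4 untreated arrays for 13 of 39 genes (33.3%), against 5.22% of all genes, and above them for 0, against 4.33%. The genes nearest to 0 were Incenp (-0.01), Cdc25a (-0.01), Pttg1 (-0.01) and Bub3 (0.01), and those above 0 were Bub3, Cdk1 (0.06) and Prc1 (0.08). With arrays centred on their median, 31 of 39 lay below 0 (median -0.13, against 0.06 over all genes). Incenp, Cdc25a, Top2a, Ube2c and Pttg1 turned to above 0, and 3 genes were called lower, against 0.135% of all genes. Of all called genes, 91.2% were then higher, against 71.1% in the scaling used here. Within replicates 2 to 4, 6 genes were called lower (median -0.22), against 1.25% of all genes, and 9 with a term for the arrays numbered 1, against 2.11%. The count of 5 was 3 without untreated replicate 1 or 100 µM replicate 2, and 2 without untreated replicate 4 or 100 µM replicate 3 or 4.

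**Figure D2:**
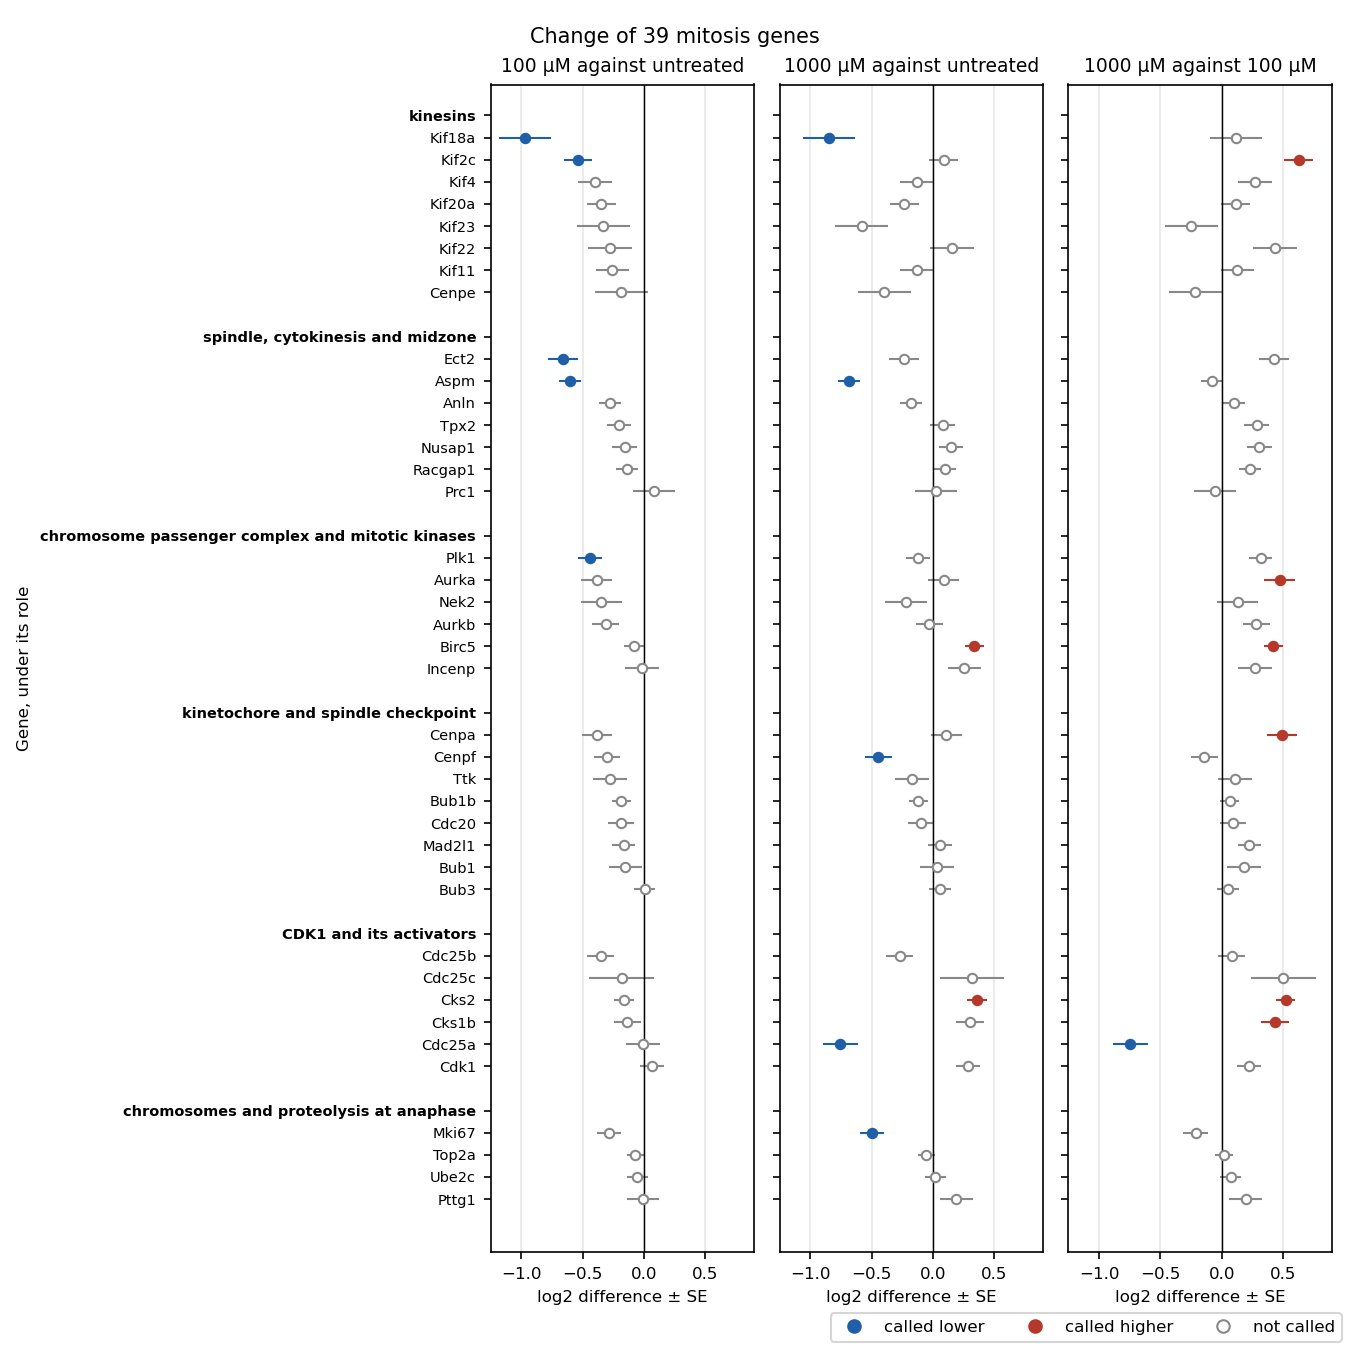
Log2 difference ± SE of each of the 39 genes (vertical axis, by role) for 100 µM and 1000 µM against untreated and for 1000 µM against 100 µM, with n = 4 arrays a dose; filled points passed limma's test at an adjusted p under 0.05. In the left panel 36 of 39 lie below 0 and in the right panel 32 lie above 0; the panels share arrays, so they are not independent.

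The kinesins, motors that move on or take apart microtubules, all 8 lay below 0 at 100 µM, with a median of -0.34. Kif18a, which limits the length of microtubules that hold chromosomes, had signals of 168, 157, 147 and 176 on untreated arrays 1 to 4 and of 87.5, 111, 80.0 and 60.4 at 100 µM. The groups did not overlap, and it fell by 0.97 ± 0.21 (SE; limma adjusted p = 0.0212). At 1 µM it had 158, 143, 132 and 179, and at 10 µM 230.5, 161, 189 and 108, so the unnumbered 10 µM array was the highest of all 20 and replicate 4 of that dose reached into the range of 100 µM. Kif2c, which depolymerises microtubules at centromeres, went from 797, 666, 646 and 783 untreated to 573, 467, 484 and 465 at 100 µM. It fell by 0.54 ± 0.12 (adjusted p = 0.0189) with no overlap, and its 2 other tested probe sets lay below 0 too without being called. Kif20a and Kif23, motors of the midzone and cytokinesis, also had all 4 arrays below the untreated ones (-0.35 and -0.33) but were not called. Kif4 (-0.40), a chromosome motor, Kif22 (-0.28), another, Kif11 (-0.26), which pushes spindle poles apart, and Cenpe (-0.18), a kinetochore motor, overlapped the untreated range. Other probe sets of 2 of these differed from the brightest one: for Kif22, 1 of its 2 others was called lower (-0.50 ± 0.11, adjusted p = 0.0167) and the remaining one lay at -0.58 (0.122), both without overlap, and for Kif11 1 other lay at -0.42 without overlap (0.0663). Counting any tested probe set, 6 of 39 genes were called lower. Several probe sets give a gene more chances of a call, and 18 of the 39 had several. The share of all genes counted this way is not given here. The call of Kif18a was lost without untreated replicate 2 or 4 or 100 µM replicate 3 or 4 (adjusted p 0.0558 to 0.0976), and that of Kif2c without untreated replicate 1 or 4, without 100 µM replicate 2, 3 or 4 (0.0535 to 0.0789), and with arrays centred on their median (0.0631).

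Among the 7 proteins of the spindle, midzone and cytokinesis, 6 lay below 0 at 100 µM and 2 fell. Ect2, which activates RhoA to build the contractile ring, had signals of 1056, 904, 943 and 1175 on untreated arrays and of 574, 650.0, 692 and 655 at 100 µM. It fell by 0.66 ± 0.12 (limma adjusted p = 0.00625), and its arrays at 1 µM (1016, 696, 784 and 927) and 10 µM (951, 952, 904 and 682) spread down into the 100 µM range or close to it. Aspm, a spindle pole protein, had 505, 516, 479 and 585 untreated and 376, 331, 315 and 348 at 100 µM. All 12 arrays of the lower 3 doses lay above all 4 arrays at 100 µM, since 1 µM gave 525, 498, 543 and 618 and 10 µM gave 563, 518, 552 and 501. Aspm fell by 0.60 ± 0.09 (adjusted p = 0.000613), and its other tested probe set, dimmer, had the same sign without being called. Anln, anillin of the contractile ring, lay at -0.28 with all arrays below the untreated ones. Tpx2 (-0.20), the activator of Aurora A, Nusap1 (-0.16), a spindle microtubule binder, Racgap1 (-0.14), the partner of Kif23, and Prc1 (0.08), which bundles midzone microtubules, overlapped. The other tested probe set of Racgap1 lay at -0.35 without overlap, and that of Prc1 had the opposite sign, at -0.18 with overlap. Neither was called. The calls of Ect2 and Aspm held in all 19 alternative fits run for them.

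The 6 members of the chromosome passenger complex and the mitotic kinases all lay below 0 at 100 µM (median -0.33), and Plk1 fell. Plk1, a kinase of spindle assembly and cytokinesis, had signals of 763, 682, 729.7 and 769 untreated and of 624, 530.0, 496 and 528 at 100 µM. The groups did not overlap, and it fell by 0.44 ± 0.10 (limma adjusted p = 0.0202). Its signals were 794, 802, 806 and 718 at 1 µM and 778, 757, 800.4 and 725 at 10 µM, all above the 100 µM arrays. Aurka, the spindle pole kinase Aurora A, had 887, 638, 646 and 641 untreated and 609.7, 519, 554 and 459.8 at 100 µM, with no overlap, but its difference of -0.38 ± 0.13 was not called (adjusted p = 0.186). Its untreated array numbered 1 stood well above the other 3 untreated arrays. Aurkb, the kinase of the passenger complex, lay at -0.31 with no overlap. Nek2 (-0.35), which separates centrosomes, Birc5 (-0.08), survivin of the passenger complex, and Incenp (-0.01), its scaffold, overlapped the untreated range. The call of Plk1 was lost without untreated replicate 1, 3 or 4 or 100 µM replicate 2, 3 or 4 (adjusted p 0.0518 to 0.0776) and with median centring (0.119).

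Kinetochore and checkpoint genes, CDK1 and its activators, and the genes of chromosome structure and anaphase held 0 calls at 100 µM. Of 8 kinetochore and checkpoint genes, 7 lay below 0 (median -0.19): Cenpa, the centromeric histone (-0.38), Cenpf, a kinetochore protein (-0.30, no overlap), the checkpoint kinases Ttk (-0.28, no overlap) and Bub1 (-0.15), Bub1b (-0.19), Mad2l1 (-0.17), and Cdc20 (-0.18), the activator of the anaphase-promoting complex. Their checkpoint partner Bub3 lay at 0.01. Of CDK1 and its activators, 5 of 6 lay below 0 (median -0.15), with Cdc25b, a phosphatase that activates CDK1, at -0.35 and no overlap. Cdk1 itself had 1426, 1832, 2024 and 2003 on untreated arrays and 1890.3, 1948, 1819 and 1890.0 at 100 µM, a narrow range inside the wide untreated one. Its signals at 1 µM (2235, 2704, 2171 and 2018) and 10 µM (2133, 2073, 2185 and 2152) ran higher, with an unadjusted p of 0.00287 and an adjusted p of 0.565 for 1 µM in limma's fit. Top2a, which untangles DNA, had 1785, 1692, 1696 and 1644 untreated, 1772, 1620.1, 1874 and 1778 at 1 µM, 1544, 1832, 1831 and 1819 at 10 µM, 1507, 1696, 1629 and 1665 at 100 µM and 1616, 1598, 1676 and 1686 at 1000 µM. All 5 doses overlapped, and its largest difference from untreated was -0.07 ± 0.07, at 100 µM. Mki67, which coats mitotic chromosomes and is a marker of cycling cells, lay at -0.28 at 100 µM with 1 untreated array inside the range of 100 µM. Ube2c (-0.05), the ubiquitin-conjugating enzyme of the anaphase-promoting complex, and Pttg1 (-0.01), securin, lay near 0.

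**Figure D3:**
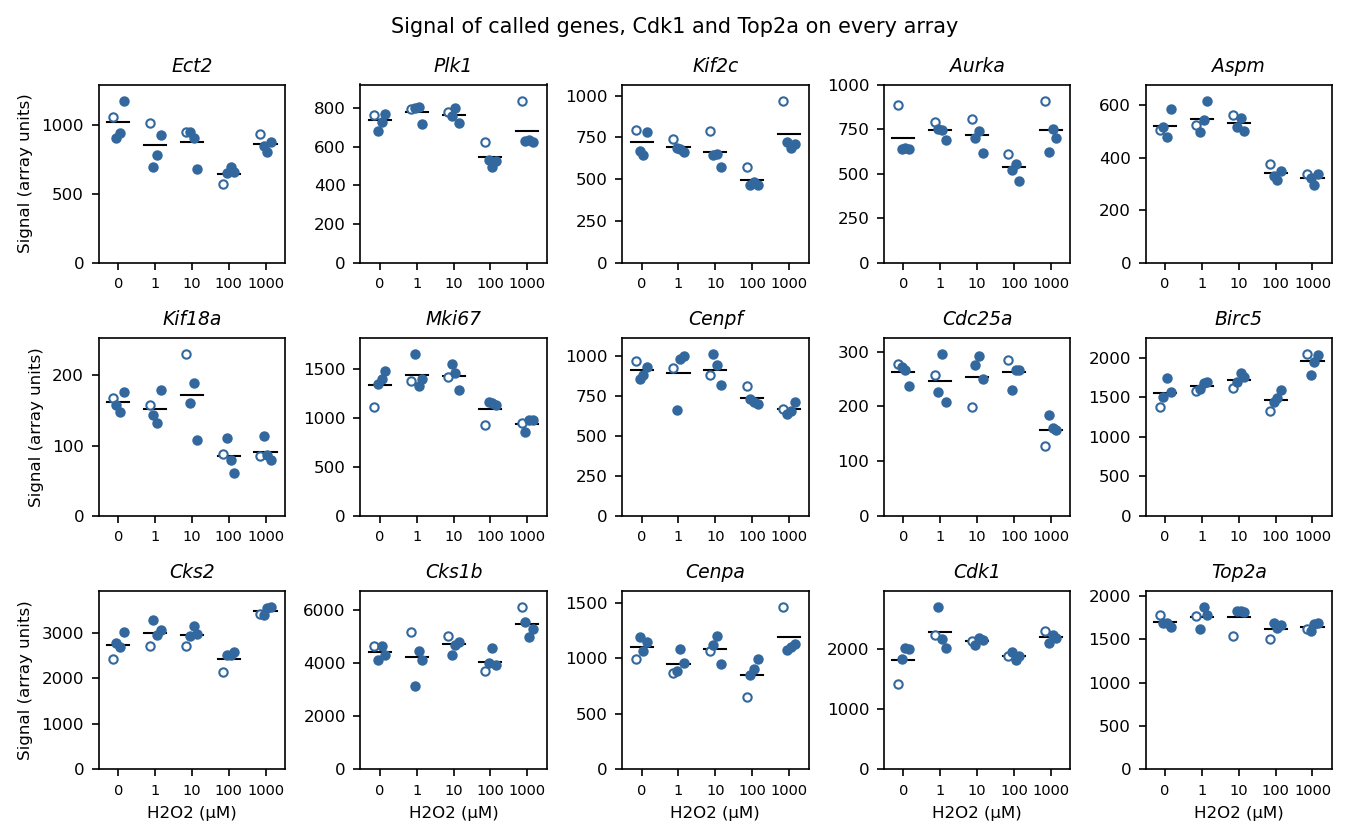
Signal (array units, axes from 0) of 15 genes on every array against H2O2 dose, with the mean of 4 arrays as a line and arrays numbered 1 (at 10 µM the unnumbered array) as open circles. Ect2, Plk1, Kif2c and Aurka are low at 100 µM, Aspm and Kif18a at 100 and 1000 µM, Cdc25a at 1000 µM, and Birc5 and Cks2 are high at 1000 µM.

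From 10 to 100 µM, Kif18a, Aspm and Plk1 fell; this comparison shares the 100 µM arrays with the one above. Of 39 genes, 37 lay below 0, with a median of -0.29 against -0.00 over all tested genes. Kif18a (-1.003 ± 0.21, limma adjusted p = 0.0185, ranges overlapping), Aspm (-0.64 ± 0.09, 0.000301) and Plk1 (-0.49 ± 0.10, 0.00824) fell, 3 of 39 against 0.172% of all genes, and 0 rose, against 0.87%. All 4 arrays at 100 µM lay below all 4 at 10 µM for 17 genes (43.6%), against 3.49% of all genes, and above them for 0, against 4.04%. Mki67 lay at -0.39 (adjusted p = 0.0737). The call of Kif18a was lost without 10 µM replicate 1, 2 or 3 or 100 µM replicate 3 or 4 (0.0519 to 0.0895), whereas without 10 µM replicate 4 the number called was 5, with Ect2 (-0.54) and Ttk (-0.49) added. Within replicates 2 to 4, 9 genes were called lower, against 0.784% of all genes, and Kif18a was not (adjusted p = 0.0754). With a term for the arrays numbered 1, 13 were called lower, against 0.931%. A probe set of Kif22 other than its brightest was called lower here too (-0.49 ± 0.11, adjusted p = 0.0212).

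At 1000 µM the mitosis genes did not move one way: Kif18a, Cdc25a, Aspm, Mki67 and Cenpf fell and Cks2 and Birc5 rose. The 5 that fell stand against 8.05% of all tested genes called lower, and the 2 that rose against 2.64% called higher. In direction, 20 of 39 lay below 0, with a median of -0.03 against -0.05 over all genes. The 4 arrays at 1000 µM lay below all untreated arrays for 7 genes, against 13.1% of all genes, and above them for 4, against 6.96%. These shares depend on scaling. With each array centred on its median, 11 of 39 lay below 0, and all genes shifted to a median of 0.15 and the mitosis genes to 0.17. In that setting 3 mitosis genes were called lower, against 2.48% of all genes, and 7 higher, against 15.6%. Of all called genes, 24.7% were higher in the scaling used here, 86.3% with median centring and 40.5% with quantile normalization. Within replicates 2 to 4, 7 were called lower and 2 higher, against 12.4% and 5.63% of all genes, and 8 and 4 with a term for the arrays numbered 1, against 14.7% and 7.64%. This comparison shares the untreated arrays with that of 100 µM.

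Aspm was also low at 1000 µM, with signals of 339, 324, 295 and 338. It fell by 0.68 ± 0.09 against untreated (limma adjusted p = 5.09e-05), its other tested probe set was called lower too, and the difference between 1000 and 100 µM was -0.08 ± 0.09. Kif18a had 84.8, 113, 86.0 and 79.6 at 1000 µM, fell by 0.85 ± 0.21 (adjusted p = 0.014), and differed from 100 µM by 0.12 ± 0.21. Its call was lost with quantile normalization (0.0582).

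Cdc25a, a phosphatase that activates CDK2 and CDK1 and is needed to enter S phase and mitosis, was low at 1000 µM alone. Its signals were 277, 271, 267 and 238 untreated, 257, 226, 296 and 208 at 1 µM, 198, 276, 291 and 250.2 at 10 µM, 285, 229.9, 266 and 266 at 100 µM and 127, 184, 160.3 and 157 at 1000 µM. All 4 arrays at 1000 µM lay below the other 16, and it fell by 0.75 ± 0.14 against untreated (limma adjusted p = 0.0016) and by 0.75 ± 0.14 against 100 µM (0.0033). Its other tested probe set had the same sign in both comparisons and was not called.

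Mki67 had signals of 1116, 1347, 1396 and 1482 untreated, 1377, 1655, 1332 and 1402 at 1 µM and 1421, 1554, 1459.6 and 1289 at 10 µM. It had 931, 1163, 1149.8 and 1135 at 100 µM and 949, 861, 982 and 975 at 1000 µM. All arrays at 1000 µM lay below the untreated ones, and it fell by 0.50 ± 0.10 (limma adjusted p = 0.00268). Cenpf had 972, 858, 884 and 933 untreated, 923, 659.7, 982 and 1002 at 1 µM, 883, 1014, 944 and 822 at 10 µM, 815, 734, 710.3 and 699 at 100 µM and 668, 638, 658 and 714 at 1000 µM. It fell by 0.44 ± 0.11 at 1000 µM (adjusted p = 0.0118), and replicate 2 at 1 µM was also low. Both calls were lost with median centring (0.0654 for Mki67, 0.154 for Cenpf). Of genes not called, Kif23 (-0.58, adjusted p = 0.0904) and Cdc25b (-0.27, 0.124) had all arrays at 1000 µM below the untreated ones. A dimmer probe set of Kif11 was called lower at 1000 µM (-0.37 ± 0.11, adjusted p = 0.0299), whereas its brightest lay at -0.13.

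The genes that rose at 1000 µM were Cks2, a small subunit of cyclin-dependent kinase complexes, and Birc5. Cks2 had 2420.1, 2781, 2679 and 3026 untreated, 2708, 3283, 2963 and 3063 at 1 µM and 2718, 2938, 3159 and 2986 at 10 µM. It had 2144, 2512, 2509 and 2570.3 at 100 µM and 3425, 3400.0, 3546 and 3566 at 1000 µM, where all 4 arrays lay above the other 16. It rose by 0.36 ± 0.08 against untreated (limma adjusted p = 0.00717). Birc5 had 1374, 1503, 1743 and 1564 untreated, 1582, 1601, 1682 and 1689 at 1 µM, 1620.3, 1690.0, 1804 and 1751 at 10 µM, 1330.1, 1436, 1484 and 1586 at 100 µM and 2045, 1782, 1943 and 2037 at 1000 µM, and it rose by 0.34 ± 0.08 (adjusted p = 0.00823). Replicate 2 at 1000 µM was the lowest of its dose and within the 10 µM range. Cks1b (0.30, adjusted p = 0.0909), the paralog of Cks2, and Cdk1 (0.29, 0.0612; 2299.6, 2098, 2239 and 2185 at 1000 µM) had all arrays above the untreated ones without passing the test. Cdc25c, the remaining CDK1-activating phosphatase, was dim and scattered, with a difference of 0.32 ± 0.26.

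From 100 to 1000 µM, Kif2c, Cks2, Cenpa, Aurka, Cks1b and Birc5 rose and Cdc25a fell. The 6 that rose stand against 0.76% of all tested genes called higher, and Cdc25a, 1 of 39, against 3.62% called lower. In direction, 32 of 39 lay above 0, with a median of 0.18 against -0.03 over all genes. All 4 arrays at 1000 µM lay above all 4 at 100 µM for 14 genes (35.9%), against 4.99% of all genes, and below them for 1, against 10.2%. This comparison uses the same 100 µM arrays as that of 100 µM with untreated myotubes, so a low array there lowers that difference and raises this one. With median centring, 34 lay above 0 (median 0.31, against 0.10 over all genes) and 12 were called higher, against 1.64% of all genes. Of all called genes, 57.8% were then higher, against 17.4% in the scaling used here and 28.3% with quantile normalization. Within replicates 2 to 4, 7 were called higher and 2 lower, against 2.41% and 6.95% of all genes, and with a term for the arrays numbered 1, 10 were higher, against 2.97%.

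Kif2c returned to 969.9, 725, 685 and 713 at 1000 µM, 0.63 ± 0.12 above 100 µM (limma adjusted p = 0.00277) and 0.09 ± 0.12 from untreated. Its 2 other tested probe sets lay 0.21 and 0.16 above 100 µM, with overlap, and were not called (adjusted p = 0.422 and 0.721). The signals of its brightest probe set were 741, 687, 682 and 664 at 1 µM and 790.3, 643, 650.3 and 575 at 10 µM. Cks2 rose by 0.52 ± 0.08 (adjusted p = 0.000586), with its other probe set called too, and Birc5 by 0.42 ± 0.08 (0.00278). The calls of Kif2c, Cks2 and Birc5 in this comparison held in all 19 alternative fits run for them.

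Cenpa had 991, 1191, 1066 and 1142 untreated, 866, 883, 1082 and 961 at 1 µM, 1069, 1119.9, 1203 and 946 at 10 µM, 649.9, 852, 900.4 and 995 at 100 µM and 1461, 1071, 1105 and 1130.1 at 1000 µM. Array 1 was the lowest of the 100 µM arrays and the highest of the 1000 µM arrays. Cenpa rose by 0.49 ± 0.12 (limma adjusted p = 0.0251), but within replicates 2 to 4 the difference was 0.27 (0.0791). The call was also lost without 100 µM replicate 1 or 2 or 1000 µM replicate 1 (0.0553 to 0.0898). Aurka had 793, 750.2, 748 and 688 at 1 µM, 807, 703, 742 and 619 at 10 µM and 911, 624, 754 and 698 at 1000 µM, and rose by 0.47 ± 0.13 (adjusted p = 0.0356). Its call was lost without 100 µM replicate 2, 3 or 4 or 1000 µM replicate 1, 3 or 4 (0.0571 to 0.125).

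Cks1b had 4642, 4119, 4623 and 4310.0 untreated, 5166, 3125, 4429.6 and 4106 at 1 µM, 5019.7, 4278, 4683 and 4782 at 10 µM, 3685, 4002, 4539 and 3919 at 100 µM and 6094, 5525, 4954 and 5289 at 1000 µM. It rose by 0.44 ± 0.11 (limma adjusted p = 0.0301), and its call was lost without 100 µM replicate 1, 2 or 4, without 1000 µM replicate 1, 2 or 4 (0.0614 to 0.0913), and with quantile normalization (0.137). Ect2 had 933, 849, 799.9 and 876 at 1000 µM, all above the 100 µM arrays, and its difference of 0.43 ± 0.12 missed the threshold (adjusted p = 0.0518). Plk1 had 838, 631, 635 and 623 at 1000 µM, where array 1 stood apart and replicate 4 lay just below the highest 100 µM array, with a difference of 0.32 ± 0.10 (0.0636). Probe sets other than the brightest were called higher for Kif22 (0.39 ± 0.11, adjusted p = 0.0379; the brightest lay at 0.43, 0.192) and for Aurkb (0.52 ± 0.15, 0.0492; the brightest at 0.28, 0.161), so 8 genes were called higher by any tested probe set. For that count by any probe set, no share of all genes is given here. By the brightest probe set, the number called higher was 3 without 1000 µM replicate 1 and also 3 without 100 µM replicate 2.

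By role, the step from 100 to 1000 µM had a median of 0.30 in the passenger complex and mitotic kinases (6 of 6 above 0), 0.33 in CDK1 and its activators (5 of 6), 0.23 in spindle and cytokinesis genes (5 of 7), 0.12 in kinesins (6 of 8), 0.10 in kinetochore and checkpoint genes (7 of 8) and 0.05 in genes of chromosomes and anaphase (3 of 4). Differences between roles were not tested.

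**Figure D4:**
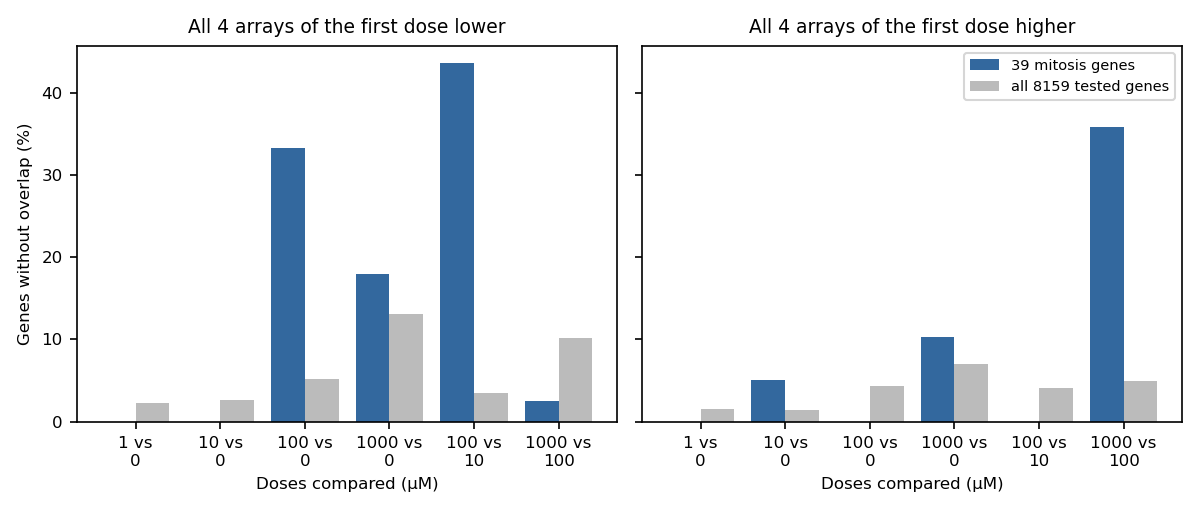
Percent of genes whose 4 arrays at the dose named first all lie below (left) or above (right) all 4 arrays at the other dose, for the 39 mitosis genes (blue bars) and all 8159 tested genes (grey bars), for 6 comparisons that share arrays. The mitosis genes reach 33.3% for 100 µM against untreated and 43.6% against 10 µM on the left, where all genes reach 5.22% and 3.49%, and 35.9% for 1000 µM against 100 µM on the right, where all genes reach 4.99%.

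Promoter motifs can be set beside the calls. Of the 5 genes that fell at 100 µM, all with a RefSeq promoter, 4 had TTTGAA (Kif18a did not) and 3 had CCAAT, and of the 6 that rose from 100 to 1000 µM, 4 had TTTGAA. Of the 5 that fell at 1000 µM against untreated, 3 had TTTGAA (Kif18a and Cdc25a did not), as did 2 of the 3 that fell from 10 to 100 µM. The 2 that rose at 1000 µM against untreated, Cks2 and Birc5, and the 1 that fell there against 100 µM, Cdc25a, had 0 matches to TTTGAA in this window, as the printed promoters of Cks2 and Cdc25a show. With so few genes these are counts only, and 23 of all 34 genes with a promoter had the motif.

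Other genes of the cell cycle were taken from lists of named genes. Of 40 tested further mitosis genes, 30 lay below 0 at 100 µM, against 55.0% of all tested genes. Their median was -0.14, against -0.02. In that list 1 was called lower, against 0.404% of all genes, and 1 higher, against 0.993%. Pimreg, a regulator of the metaphase to anaphase transition, fell by 0.55 ± 0.11 (limma adjusted p = 0.0124). Gtse1, a microtubule-binding p53 regulator that is also on the list of arrest genes, rose by 0.90 ± 0.18 (0.0123). At 1000 µM the microtubule regulators Ckap5 (-0.43 ± 0.10, adjusted p = 0.00705) and Kif2a (-0.35 ± 0.09, 0.016) fell. They were 2 of 40, against 8.05% of all tested genes called lower, and 0 rose, against 2.64%. From 100 to 1000 µM Pimreg rose by 0.46 ± 0.11 (0.0203) while Kif2a fell by 0.36 ± 0.09 (0.0271). In that step 0.76% of all genes were called higher and 3.62% lower. Gtse1 also rose from 10 to 100 µM (0.79 ± 0.18, adjusted p = 0.0339). Of 41 tested genes of DNA replication, 0 passed the test at 100 µM (median -0.03, against -0.02 over all tested genes). At 1000 µM 3 of the 41 were called higher, against 2.64% of all tested genes, and 1 lower, against 8.05%. At 1000 µM Tk1 (0.41 ± 0.09, adjusted p = 0.00742), thymidine kinase, Mcm6 (0.35 ± 0.09, 0.023), a subunit of the replicative helicase, and Pcna (0.33 ± 0.08, 0.0131), the sliding clamp, rose, and Cdc7 (-0.59 ± 0.17, 0.0309), which fires origins, fell.

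Of 15 tested transcriptional regulators of the cell cycle, 0 passed the test at 100 µM. There 12 of the 15 lay below 0, against 55.0% of all tested genes, with a median of -0.18 against -0.02. At 1000 µM 2 of the 15 were called lower, against 8.05% of all tested genes, and 0 higher, against 2.64%. E2f8, a repressor of E2F target genes, fell at that dose by 1.03 ± 0.12 (limma adjusted p = 8.25e-06). Rbl2, the pocket protein of the DREAM repressor complex, fell by 0.49 ± 0.08 (0.000739). The list of arrest genes also holds p53 targets and regulators, such as Mdm2 and Gtse1. Of its 14 tested genes, 7 rose at 100 µM, against 0.993% of all tested genes, and 1 fell, against 0.404%. Its median was 0.50, against -0.02. Trp53inp1 (1.69 ± 0.13, adjusted p = 3.75e-08) and Mdm2 (1.33 ± 0.13, 1.9e-06), both p53 targets, were among those that rose. So were Btg2 (1.19 ± 0.15, 9.36e-05), an antiproliferative p53 target, and Plk2 (0.93 ± 0.09, 1.9e-06), a stress-induced kinase. At 1000 µM 5 rose, against 2.64% of all tested genes, and 1 fell, against 8.05%. Btg2 lay at 1.49 ± 0.15 (adjusted p = 2.58e-06), Plk2 at 1.07 ± 0.09, Mdm2 at 1.01 ± 0.13 and Trp53inp1 at 0.93 ± 0.13. From 100 to 1000 µM, Trp53inp1 fell by 0.76 ± 0.13 (0.00109). Any link between the arrest genes and the mitosis genes was not tested.

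Markers of other cells were read beside these results. Of the 23 myotube markers, 2 lay below 0 against untreated at each of 1, 10 and 100 µM and 4 at 1000 µM. Their medians were 0.17, 0.14, 0.15 and 0.18. Of all tested genes, 55.3%, 55.5%, 55.0% and 58.2% lay below 0 at these doses. The summed signal of the myotube markers was 132940 to 161777 on untreated arrays, 165787 to 170868 at 1 µM, wholly above the untreated range, and 154120 to 199462 at 10 µM. It was 154254 to 176725 at 100 µM and 166144 to 180725 at 1000 µM. Of the 23, 1 was called, Tnnt3, a fast troponin, up by 0.32 ± 0.10 at 1000 µM (limma adjusted p = 0.034). At that dose 2.64% of all tested genes were called higher. Of 13 reserve and satellite cell markers 9 were tested, with summed signals of 6412 to 7723 untreated, 5960.1 to 7020.0 at 100 µM and 6447 to 6591 at 1000 µM. Of these 9, 6 lay below 0 at 100 µM and 5 at 1000 µM, against 55.0% and 58.2% of all tested genes, and the rest lay above 0. Called lower were 1 of the 9 at 100 µM, against 0.404% of all tested genes, and 2 at 1000 µM, against 8.05%. Spry1, a growth factor signalling inhibitor, fell by 0.97 ± 0.10 at 100 µM (7.46e-06) and by 0.86 ± 0.10 at 1000 µM. Met, the receptor of hepatocyte growth factor, fell by 0.61 ± 0.16 at 1000 µM (adjusted p = 0.0185). Of 8 tested fibroblast markers 0 were called at any dose, with overlapping sums (23062 to 38776 untreated, 26504 to 43487 at 100 µM, 30411 to 41735 at 1000 µM), and the 2 tested leukocyte markers, Csf1r and Cd14, were not called either. The part of cell composition in the mitosis results was not tested.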

How the data were processed

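Linear signals per probe set were deposited, intensity values that the authors made with Affymetrix Microarray Suite 5.0 (MAS5), per the series' design text and the submitters' processing notes. Detection and difference calls were not used here. The 2% trimmed mean of each array was 500.1 to 500.2, so the deposited intensities carry a global scaling. Each array was read as 1 channel, as the design text's streptavidin stain implies, although the labels list a pair of dyes. Arrays have no read depth, and 4 arrays a dose limit the precision. All 20 arrays were used, and 0 columns of per-sample values were left out. Groups came from the titles; 1 title misspells its unit and was read as µM, and a 10 µM title lacks a replicate number; that array is called replicate 1 and was placed with the arrays numbered 1 because its values grouped with theirs.

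Signals were rescaled to a trimmed mean of 500, floored at 1 and log2 transformed. Of 22690 probe sets, 64 controls were left out, and 14379 that reached their array's 40th percentile on at least 4 arrays were tested. The 5 groups were fitted together in limma 3.58.1 (R 4.3.3), with eBayes moderating the variance along mean signal; there were 15 residual degrees of freedom and 5.33 from the prior. P-values are two-sided, with Benjamini-Hochberg adjustment over all tested probe sets within a comparison, and a gene was called at an adjusted p under 0.05. Differences are on the log2 scale, ± SE, with n = 4 arrays a dose. The fit was tested on simulated data. Gene symbols are those of the platform annotation, which can be old: 20393 probe sets had 1 symbol, 691 had several and 1606 had none. Promoters and their motifs came from RefSeq's table for GRCm38.p6.

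The 40 genes, the marker and pathway lists and the tests were chosen with earlier results of these data known. Each of the 40 is named; signals on every array are given for genes whose representing probe set was called in any of the 6 comparisons (at most 12 by size of change in each) and for Cdk1, Mki67 and Top2a, and from each pathway list at most 4 called genes a comparison. Replicate numbers were checked as a pairing by correlations of deviations from the group means. These were 0.462 to 0.514 among arrays numbered 1. They were over 0.1 in 8 of 10 pairs numbered 2, 10 of 10 numbered 3 and 9 of 10 numbered 4, and above 0 in all. The rule asked every pair to exceed 0.1, and no label says that the numbers mark a shared source. The numbers were therefore not taken to pair the arrays, and the main fit has no replicate term. Fits with such terms are among the alternatives. Alternatives were median centring, quantile normalization, a floor of 32, adding 16, no filter, a filter at the 60th percentile, any probe set of a gene, the replicate block, replicates 2 to 4, a term for arrays numbered 1, array weights, eBayes without a trend, the study's crossed rule (all treated and control pairs in 1 direction and a mean change over 1.75), and leaving out each array.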

Additional observations from a re-analysis of the deposited data

Results flagged for a closer look

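In 19 of 195 groups of 4 arrays (39 genes at 5 doses), 1 array lay far from the other 3: its gap to the nearest, as a share of the group's range, was above Dixon's critical value for 4 samples. Chance gives about 1 in 20 groups. Of the 19 arrays, 16 were numbered replicate 1 (or, at 10 µM, had no number), and 9 were high. All values are signals, with the range of the other 3 arrays in parentheses.

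On untreated array 1, Kif23 had 550.4 (446.9 to 461.1) and Aurka 886.9 (637.7 to 645.6), both high, whereas Cdc20 had 1585 (1882 to 1945), Ube2c 1119.4 (1459 to 1536) and Pttg1 2442 (3509 to 3745), all low. At 1 µM, array 1 had 226.1 for Kif23 (430.2 to 463.6), 583 for Kif20a (523.2 to 529.8) and 2246 for Anln (1829.9 to 1895). The array of that dose numbered 4 had 717.6 for Plk1 (794 to 805.8).

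At 10 µM, the unnumbered array had 1766 for Bub3 (1679.6 to 1691) and 1544 for Top2a (1819 to 1832), and array 4 had 682.1 for Ect2 (904.3 to 951.6). At 100 µM, array 1 had 2144 for Cks2 (2509 to 2570.3) and 930.7 for Mki67 (1135 to 1163), both low, and 1785 for Anln (1552 to 1589.5), high. At 1000 µM, array 1 was high for Plk1 at 837.6 (623.1 to 635.4), for Kif2c at 969.9 (684.8 to 724.8) and for Incenp at 931 (837.7 to 849.4), and array 2 was low for Bub1b at 631.8 (664.5 to 670.4).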

How the results depend on the processing

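No called gene changed sign in any alternative. The calls of Aspm (3 comparisons), Ect2 at 100 µM, Plk1 at 100 against 10 µM, Kif2c at 1000 against 100 µM, and Birc5, Cks2 and Cdc25a (both of their comparisons each) held in every fit that gave a value; the dimmest, Kif18a and Cdc25a, were not tested under the 60th-percentile filter. With median centring, the median of the 39 genes was 0.12 at 1 µM, 0.15 at 10 µM, -0.13 at 100 µM, 0.17 at 1000 µM and 0.31 for 1000 against 100 µM. Called were 3 lower at 100 µM (0.135% of all genes) and 3 lower and 7 higher at 1000 µM (2.48% and 15.6%). For 1000 against 100 µM 12 were called higher (1.64%). The 60th-percentile filter left 3 lower at 1000 µM (8.41% of all genes) and 0 lower for 1000 against 100 µM (4.11%), since it tests fewer genes.

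With the replicate block (the unnumbered array left out), 8 genes were called lower at 100 µM (1.3% of all tested genes under that fit), 4 higher at 1000 µM (6.28%) and 6 lower for 100 against 10 µM (0.392%), where Kif18a was lost (adjusted p = 0.0565); of the 19 numbered arrays, 4 correlated best with an array of their own number. The term for arrays numbered 1 gave 9 lower at 100 µM (2.11% of all genes), 8 lower and 4 higher at 1000 µM (14.7% and 7.64%), 13 lower for 100 against 10 µM (0.931%) and 10 higher for 1000 against 100 µM (2.97%). Array weights gave 12 lower at 100 µM (3.36%), 10 lower and 6 higher at 1000 µM (19.4% and 10.3%), 24 lower for 100 against 10 µM (2.54%), and 14 higher and 2 lower for 1000 against 100 µM (5.56% and 13.1%). Replicates 2 to 4 gave 9 lower for 100 against 10 µM (0.784%) and 2 lower for 1000 against 100 µM (6.95%). These fits called more of all genes as well. The study's crossed rule left 1 lower at 100 µM, 1 lower and 0 higher at 1000 µM, and 0 for 100 against 10 µM. For 1000 against 100 µM it left 0 lower and 0 higher. The share of all tested genes passing that rule is not given here, so these counts have no background. The cause of these shifts was not tested.

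Leaving out 1 array at a time, 0 were called at 1 and 10 µM (medians 0.01 to 0.05 and 0.03 to 0.10). At 100 µM, 2 to 5 were lower and 0 higher (median -0.27 to -0.18), and at 1000 µM, 5 were lower each time and 2 to 3 higher (-0.06 to -0.00). For 100 against 10 µM, 2 to 5 were lower (-0.31 to -0.26), and for 1000 against 100 µM, 1 was lower and 3 to 5 higher (0.18 to 0.21). No share of all tested genes is given for these fits or for the counts above that left out 1 array. With all arrays, 0.404% of all tested genes were called lower at 100 µM and 8.05% at 1000 µM. Signal over background limits Kif18a and Cdc25c, which fell under the filter level on some arrays.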
